A study of Mus musculus with 39 samples.

Results

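The 10 genes described here encode hormones and growth factors that the liver releases into the blood or the space between cells: Fgf21, Enho, Gdf15, Fetub, Ahsg, Inhbe, Lect2, Igf1, Igfbp2 and Tsku. They were chosen by name as secreted liver factors, with earlier results of these data known. They are 10 of the 55416 genes in the deposited count table. RNA was sequenced from the livers of 39 male mice, 1 library per mouse, which fall into 4 groups: Cd163 knockout on Western diet (n = 15), wildtype on Western diet (n = 15), Cd163 knockout on chow (n = 4) and wildtype on chow (n = 5). Knockout mice carried the CD163tm1(KOMP)Vlcg allele on C57BL/6NTac, and wildtype mice were their littermates, both born to heterozygous parents. Cd163 encodes a macrophage receptor that takes up haemoglobin bound to haptoglobin. Mice were put on their diet at 6 weeks of age and kept on it for 8 weeks. The Western diet came with fructose in the drinking water and chow with plain water, so the food and the fructose cannot be told apart.

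Hepatocytes secrete most plasma proteins, and a subset of these act as hormones on fat, muscle, brain or the liver itself. Fgf21 signals through FGF receptors with the co-receptor Klb, and its gene is known to respond to fasting, to sugar and to amino acid shortage. Gdf15 acts on the hindbrain receptor Gfral and lowers food intake. Inhbe encodes the beta subunit of activin E, a TGF-beta family ligand made almost only in liver that restrains fat breakdown in adipose tissue. Enho encodes adropin, a small secreted peptide linked to sugar and lipid handling. Ahsg and Fetub encode the cystatin-like plasma proteins fetuin-A and fetuin-B. Igf1 is the main growth factor that growth hormone induces in liver, and Igfbp2 encodes a plasma protein that binds it. Lect2 is a leukocyte chemotactic factor that binds Met and Tie1, and Tsku encodes tsukushi, a small leucine-rich protein secreted by liver.

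Of the 10 genes, 9 had a promoter window in RefSeq (GRCm38.p6), which runs from 250 bases before to 50 bases after a start site, and Enho had no entry. The windows below are those of Fgf21 (chr7:45615441-45615740, minus strand), Inhbe (chr10:127351799-127352098, minus strand) and Gdf15 (chr8:70632046-70632345, minus strand). Gdf15 has a second window (chr8:70632407-70632706) with no match to the motifs searched, and the one with a match is shown. They are shown because these are the genes of the set whose transcripts were higher together in Western diet livers with more lipid droplet gene expression, as given further on. Capitals mark matches, on either strand, to the composite element of ATF4 and C/EBP (TGATGNAA) and to the E-box of the bHLH class (CACGTG).
Fgf21: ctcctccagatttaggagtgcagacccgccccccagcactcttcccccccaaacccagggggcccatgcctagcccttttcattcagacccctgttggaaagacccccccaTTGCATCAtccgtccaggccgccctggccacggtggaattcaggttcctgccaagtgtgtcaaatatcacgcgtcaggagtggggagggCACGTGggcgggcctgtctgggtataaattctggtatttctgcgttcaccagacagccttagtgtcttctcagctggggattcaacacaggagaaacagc
Inhbe: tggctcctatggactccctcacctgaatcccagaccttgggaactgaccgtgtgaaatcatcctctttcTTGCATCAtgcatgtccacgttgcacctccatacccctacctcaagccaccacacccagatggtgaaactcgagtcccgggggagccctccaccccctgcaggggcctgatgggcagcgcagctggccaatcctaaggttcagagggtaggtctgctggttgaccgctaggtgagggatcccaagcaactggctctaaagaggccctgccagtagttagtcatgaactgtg
Gdf15: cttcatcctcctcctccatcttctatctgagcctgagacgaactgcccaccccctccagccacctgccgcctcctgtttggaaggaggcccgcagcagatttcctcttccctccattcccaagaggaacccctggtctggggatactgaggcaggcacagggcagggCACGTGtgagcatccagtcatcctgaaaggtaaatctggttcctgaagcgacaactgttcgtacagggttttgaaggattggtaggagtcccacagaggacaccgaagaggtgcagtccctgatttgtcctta
The composite element stands at -139 from the start site of Fgf21 and at -181 from that of Inhbe, in both cases as TTGCATCA. This element was found in the windows of 2 of the 9 genes, which have 13 windows in all. It was also found in 3.97% of all 32851 RefSeq mouse windows of 300 bases. The E-box stands at -50 in Fgf21, at -83 in Gdf15 and at -142 in Igfbp2, and 7.15% of all windows hold it. The marked matches do not overlap each other. The direct repeats that bind PPAR and LXR dimers, searched as 2 copies of AGGTCA spaced by 1 base and by 4 bases, in the same direction and on both strands, were found in 0.0396% and 0.0152% of all windows and in none of the 13 windows of the 9 genes. A match in a window is a description of its letters alone.

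Library totals ran from 8578865 to 30438808 counts, with a median of 14573193. Cd163 averaged 0.354 ± 0.209 CPM (counts scaled to library size) in knockout and 8.31 ± 4.27 CPM in wildtype livers on Western diet (SD, n = 15 each), and 0.601 ± 0.138 CPM in knockout and 8.74 ± 3.89 CPM in wildtype livers on chow (SD, n = 4 and 5). Hepatocyte markers were high in every library, with 17660 to 48194 CPM of Alb on Western diet. Pancreas markers summed to at most 1.97 CPM. In 4 libraries the diet genes stood with the other diet. An index over 529 genes that differed at least 2-fold between the diets in the other 35 libraries, scaled to 0 for the chow mean and 1 for the Western mean, was 0.158 in knockout liver M and 0.213 in wildtype liver A on Western diet, against 0.821 to 1.25 in the other 28 Western diet livers. It was 0.988 in knockout liver D and 0.909 in wildtype liver A on chow, against -0.0593 to 0.104 in the other 7 chow livers. None of the 10 genes is in this index. Its genes were chosen in the other 35 libraries, so the gap between the diets there is built in. The 4 libraries were kept under their labels, and the diet results of the 10 genes are given with all 39 libraries and again with the other 35. These 4 were picked by their diet genes, so leaving them out tends to widen diet differences and lower p-values by the choice itself. Whether these mice or tubes carry the right label was not tested.

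All 10 genes passed the filter on low counts. Ahsg had by far the highest level per kilobase of exon, at 2325 ± 294 CPM per kb in knockout and 2529 ± 326 CPM per kb in wildtype livers on Western diet (SD, n = 15 each). In knockout livers on Western diet it was followed by Fetub at 224 ± 36.2, Igfbp2 at 202 ± 69.6 and Lect2 at 163 ± 23.4 CPM per kb, which are neighbours whose ranges over livers overlap. Tsku at 60.1 ± 19.9 and Igf1 at 50.02 ± 7.05 CPM per kb came next and overlap as well. Gdf15 at 31.8 ± 28.4, Inhbe at 29.5 ± 10.9 and Fgf21 at 12.3 ± 8.97 CPM per kb overlap in turn, and Enho was last at 2.87 ± 3.99 CPM per kb, with a range that reaches into that of Fgf21. The range of Gdf15 also reaches into those of Tsku and Igf1. The order differed on chow, where Enho averaged 18.8 ± 14.1 CPM per kb in knockout livers (n = 4) and 31.5 ± 23.4 CPM per kb in wildtype livers (n = 5). Enho, Gdf15 and Fgf21, all at the low end, were the transcripts that varied most. Over the 30 Western diet livers the highest level of Enho was 212 times its lowest, that of Gdf15 38.8 times and that of Fgf21 38.6 times, against 1.62 times for Ahsg. Inhbe, also at the low end, had 4.97 times. The fewest counts in a Western diet library were 3 for Enho and 10 for Fgf21, so their ratios rest on low counts.

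**Figure D1:**
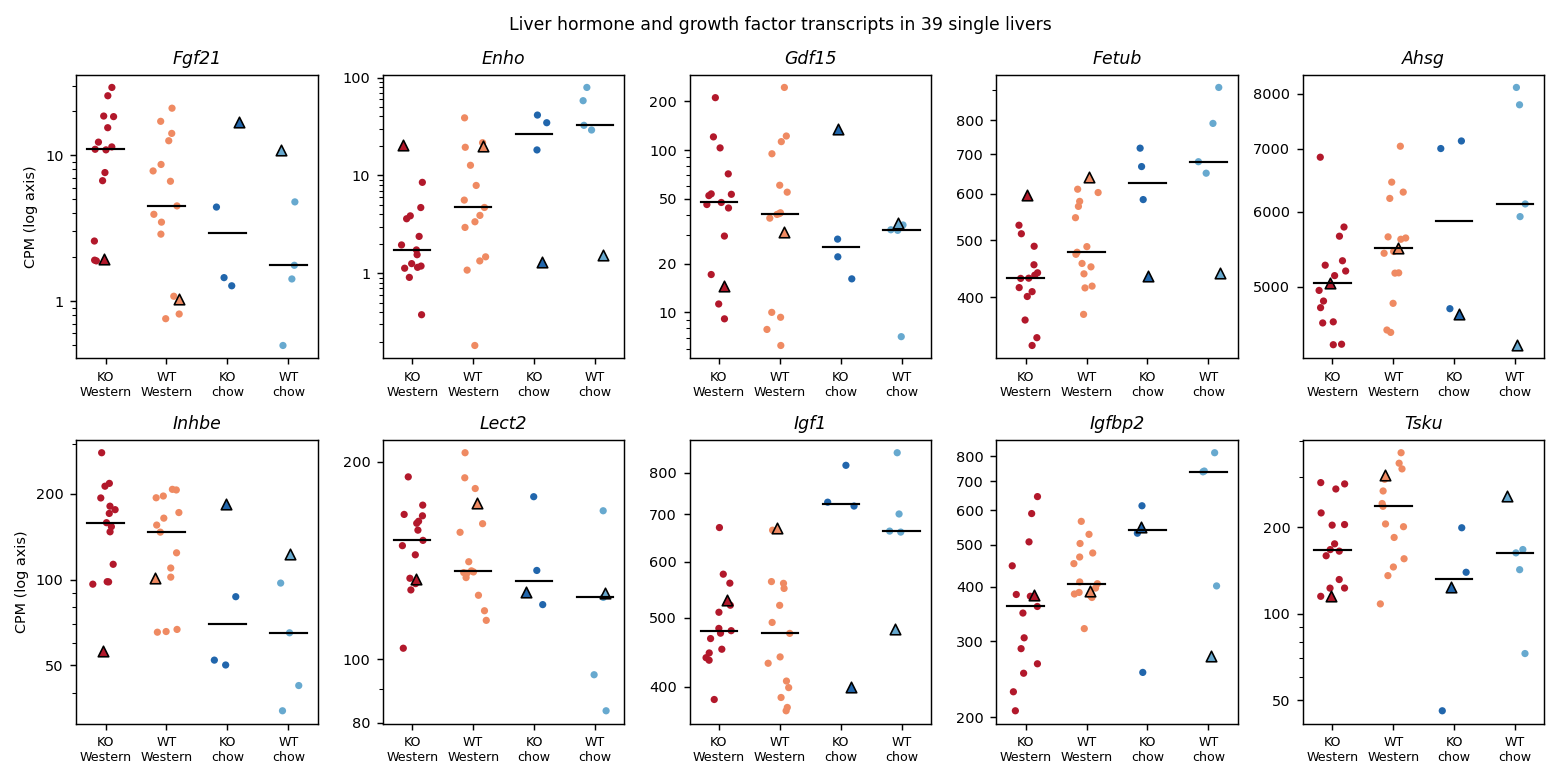
Each panel plots 1 gene in CPM on a log axis, with a point per liver, for knockout and wildtype livers on Western diet and knockout and wildtype livers on chow. Bars are group medians and outlined triangles the 4 livers whose diet genes stood with the other diet. The Enho panel shows most Western diet livers low and most chow livers high, with all 4 triangles on the other diet's side.

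The first comparison asked which of these transcripts differed between Western diet and chow, averaged over the genotypes. With all 39 libraries Inhbe was higher and Enho, Fetub and Igf1 were lower on Western diet, and the other 6 genes did not pass the test (edgeR's quasi-likelihood test, Benjamini-Hochberg adjusted p under 0.05). Over all 15296 genes tested 14.6% passed, 7.84% higher and 6.77% lower. Without the 4 libraries 8 of the 10 genes passed: Fgf21, Inhbe and Tsku were higher and Enho, Fetub, Ahsg, Igf1 and Igfbp2 were lower, where 29.9% of 15461 genes passed, 16% higher and 13.9% lower. With DESeq2 6 of the 10 passed, Igfbp2 (adjusted p = 0.0465) and Tsku (adjusted p = 0.0412) beside the same 4, where 16.9% of all genes passed, and with limma voom 8, Ahsg, Lect2, Igfbp2 and Tsku beside the 4, where 23.9% did. The median log2 change over the 10 genes was -0.00093 with 39 libraries, against -0.0019 over all genes tested, and -0.046 without the 4 libraries, against 0.0083. In whole-liver RNA, fewer cells of a type and less RNA per cell cannot be told apart.

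Some markers of other cells also differed between the diets with all 39 libraries, read against 14.6% of all genes. Of 5 erythroid markers tested 4 were higher on Western diet, Hbb-bt (3.12), Hba-a1 (2.48), Hbb-bs (2.42) and Alas2 (0.32), and the counts of the globin genes are uncertain because they have near-identical copies. The summed level of the 7 erythroid markers ran from 96.1 to 234 CPM in knockout and from 103 to 251 CPM in wildtype livers on Western diet, against 78.8 to 108 CPM in knockout and 103 to 117 CPM in wildtype livers on chow, and 1 of the 7 was at 0 in all knockout chow livers. Cfd was higher at 3.37, the 1 fat cell marker tested. Cd5l (0.73) was higher of 7 Kupffer cell markers, Lrat (0.59) of 8 stellate cell markers and Elane (1.504) of 4 neutrophil markers tested. Clec4g (-0.36) was lower of 6 endothelial and Cd79b (-0.68) of 5 lymphocyte markers. The other markers tested in these lists did not pass. Their directions were mixed for Kupffer, stellate and endothelial cells, as with Marco (-0.61), Des (-0.19) and Stab2 (0.12). No recruited macrophage or cholangiocyte marker passed, Cd9 (-0.29, adjusted p = 0.0785) and Epcam (-0.26, adjusted p = 0.355) having the smallest p. None of 8 hepatocyte markers passed, and their sum overlapped between the diets, at 42571 to 65756 CPM in knockout and 43722 to 74685 CPM in wildtype livers on Western diet, against 48225 to 65823 CPM in knockout and 40571 to 78841 CPM in wildtype livers on chow. The part of these cells in the diet results of the 10 genes was not tested.

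Enho, the adropin gene, had the largest change of the 10. Its level on Western diet ran from 0.376 over a median of 1.73 to 20.3 CPM in knockout livers and from 0.182 over a median of 4.70 to 38.7 CPM in wildtype livers. On chow it was 41.3, 18.2, 34.5 and 1.30 CPM in knockout livers A to D and 1.52, 58.0, 29.1, 32.4 and 79.2 CPM in wildtype livers A to E. The chow livers at 1.30 and 1.52 CPM are those whose diet index stood with Western diet, and the Western diet livers whose index stood with chow, knockout M and wildtype A, were high at 20.3 and 20.02 CPM. Wildtype Western diet livers G, M and L were also high, at 38.7, 21.6 and 19.4 CPM. Their indices of 0.858, 0.833 and 0.868 stood with Western diet. The groups overlap, although 29 of 30 Western diet livers lay below the chow median. Enho was lower on Western diet by a log2 change of -2.39 (SE 0.53, adjusted p = 0.00387), a level 0.191 times that on chow. Without the 4 libraries the change was -3.08 (SE 0.46, adjusted p = 1.1e-05), and 25 of 28 Western diet livers lay below the lowest chow liver. Counts behind these values were low, from 3 to 1486 per library. On the opposite strand Dnaic1 and Gm12406 overlap Enho in the GENCODE annotation, and their counts came to 3.59% and 1.25% of those of Enho over all libraries.

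Of the activin and stress hormones, Inhbe was higher on Western diet. It ran from 56.1 over a median of 158 to 279 CPM in knockout livers and from 65.4 over a median of 147 to 207 CPM in wildtype livers on Western diet. On chow it was 52.2, 87.1, 50.2 and 184 CPM in knockout livers and 123, 34.7, 42.5, 97.3 and 65.1 CPM in wildtype livers. The chow values of 184 and 123 CPM are from knockout D and wildtype A, and 29 of 30 Western diet livers lay above the chow median. The log2 change was 0.84 (SE 0.25, adjusted p = 0.0221), and 1.32 (SE 0.25, adjusted p = 1.78e-04) without the 4 libraries. With all other libraries in, the call was lost when knockout chow liver A, B or C or wildtype chow liver C was left out, with an adjusted p of up to 0.0818. It was also lost with no filter on low counts (adjusted p = 0.0582) and with library number as a covariate (adjusted p = 0.0605).

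Fgf21 ran from 1.88 over a median of 10.99 to 29.2 CPM in knockout livers and from 0.756 over a median of 4.49 to 21.0 CPM in wildtype livers on Western diet. On chow it was 1.45, 4.41, 1.27 and 16.8 CPM in knockout livers and 10.8, 1.42, 0.495, 4.79 and 1.76 CPM in wildtype livers. Again the highest chow values were those of knockout D and wildtype A. The log2 change of Fgf21 was 0.92 (SE 0.55, adjusted p = 0.255) with 39 libraries and 2.12 (SE 0.61, adjusted p = 0.00886) without the 4, so its call rests on leaving them out.

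Gdf15 ran from 9.14 over a median of 47.6 to 210 CPM in knockout livers and from 6.27 over a median of 40.6 to 243 CPM in wildtype livers on Western diet. On chow it was 22.01, 28.3, 16.1 and 135 CPM in knockout livers and 35.7, 32.0, 7.10, 32.3 and 34.6 CPM in wildtype livers. Gdf15 did not pass the test on either set of libraries, at log2 changes of 0.66 (SE 0.52, adjusted p = 0.399) and, without the 4, 1.38 (SE 0.60, adjusted p = 0.0795). Of 30 Western diet livers 20 lay above the chow median, 2 above the highest chow liver and 1 below the lowest. Without the 4 libraries 20 of 28 lay above the highest chow liver and 1 below the lowest.

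Among the fetuins, Fetub was lower on Western diet, at 439 ± 71.0 CPM in knockout and 503 ± 82.7 CPM in wildtype livers on Western diet (SD, n = 15 each), against 667, 586, 717 and 434.97 CPM in knockout and 441, 680, 650, 790 and 909 CPM in wildtype livers on chow. All 30 Western diet livers lay below the chow median. The log2 change was -0.46 (SE 0.096, adjusted p = 0.00234) and without the 4 libraries -0.60 (SE 0.085, adjusted p = 2.2e-06). Ahsg, its neighbour on chromosome 16 in the same annotation, averaged 5108 ± 647 CPM in knockout and 5556 ± 717 CPM in wildtype livers on Western diet, against 5886 ± 1364 CPM in knockout (n = 4) and 6459 ± 1540 CPM in wildtype livers (n = 5) on chow. Its change of -0.21 (SE 0.087, adjusted p = 0.0923) passed only without the 4 libraries, at -0.30 (adjusted p = 0.00938).

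Of the growth hormone axis, Igf1 was lower on Western diet. It averaged 495 ± 69.8 CPM in knockout and 487 ± 99.0 CPM in wildtype livers on Western diet (SD, n = 15 each), against 719, 728, 820 and 400 CPM in knockout and 482, 663, 700, 854 and 660 CPM in wildtype livers on chow. All 30 Western diet livers lay below the chow median, and the lowest chow values were again those of knockout D and wildtype A. The log2 change was -0.45 (SE 0.10, adjusted p = 0.00371) and without the 4 libraries -0.60 (SE 0.090, adjusted p = 7.48e-06). Igfbp2 averaged 373 ± 129 CPM in knockout and 430 ± 66.7 CPM in wildtype livers on Western diet, against 615, 254, 531 and 548 CPM in knockout and 278, 814, 736, 739 and 401.8 CPM in wildtype livers on chow. Its change of -0.42 (SE 0.15) had an adjusted p of 0.0561, and without the 4 libraries it was -0.47 (adjusted p = 0.0299).

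Tsku averaged 183 ± 60.7 CPM in knockout and 233 ± 79.3 CPM in wildtype livers on Western diet, against 127 ± 63.2 CPM in knockout and 161 ± 66.1 CPM in wildtype livers on chow. Its log2 change was 0.53 (SE 0.21, adjusted p = 0.0782), and 0.66 (adjusted p = 0.0311) without the 4 libraries. Lect2 averaged 150 ± 21.5 CPM in knockout and 149 ± 27.3 CPM in wildtype livers on Western diet, against 140 ± 25.2 CPM in knockout and 119 ± 33.0 CPM in wildtype livers on chow. It passed on neither set of libraries with edgeR, at 0.21 (SE 0.098, adjusted p = 0.141) and 0.21 (SE 0.11, adjusted p = 0.152), and passed with limma voom (adjusted p = 0.0468).

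Within each genotype the chow groups are small. With all libraries none of the 10 genes passed in knockout mice, where 0.00654% of all genes did. An unadjusted p under 0.05 was reached there by 4 of the 10 and by 19.2% of all genes. None of the 10 passed in wildtype mice either, where 1.39% of all genes did. There 6 of the 10 and 17.2% of all genes had an unadjusted p under 0.05. DESeq2 called 0 of the 10 in knockout mice, where it called 2.35% of the 9661 genes to which it gave an adjusted p. In wildtype mice it called 2 of the 10 and 3.5% of 14406 such genes. Limma voom called 4 of the 10 in each genotype, where it called 5.36% of all genes in knockout and 6.83% in wildtype mice. These calls also turned on single libraries. In knockout mice 1408 genes, 4 of the 10 among them, passed without knockout chow liver D, and 203 higher and 223 lower genes, 2 of the 10 among them, without knockout Western diet liver M, against 1 gene with all libraries. In wildtype mice 556 genes passed without wildtype chow liver A, 501 without wildtype Western diet liver A, 325 without knockout chow liver D and 286 without wildtype Western diet liver N, each time with 2 of the 10 among them, against 212 with all libraries and 0 without wildtype chow liver B. Without the 4 libraries Inhbe was higher and Enho, Fetub and Igf1 were lower in each genotype, where 17.2% of all genes passed in knockout mice, 9.69% higher and 7.5% lower, and 8.66% in wildtype mice, 4.26% higher and 4.4% lower. On that set of libraries the log2 changes were -3.67 in knockout and -2.48 in wildtype mice for Enho, 1.40 and 1.24 for Inhbe, -0.59 and -0.62 for Fetub, and -0.59 and -0.60 for Igf1. The difference between the genotypes in these changes was tested as an interaction. No gene of the 10 passed it and none had an unadjusted p under 0.05, and 0% of all genes passed. DESeq2 and limma voom also called 0 of the 10 and 0% of all genes, and so did edgeR without the 4 libraries. For Enho the interaction was -0.65 (SE 1.15, 95% interval -2.99 to 1.68), an interval that spans large differences in either direction.

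Loss of Cd163 was compared within each diet. Most knockout livers on Western diet carry lower library numbers than the wildtype livers, so genotype and library order cannot be fully told apart. On Western diet none of the 10 genes passed, where 0.00654% of all genes did. DESeq2 also called 0 of the 10, with 0.0196% of all genes, and limma voom 0, with 0.00654%. Enho, with a log2 difference of -1.41 (SE 0.60, unadjusted p = 0.0242, adjusted p = 0.943), and Fetub, with -0.20 (SE 0.094, unadjusted p = 0.0436, adjusted p = 0.943), were the 2 with an unadjusted p under 0.05, a level reached by 5.08% of all genes. For Enho 13 of 15 knockout livers lay below the wildtype median. Its knockout range, 0.376 to 20.3 CPM, lay within the wildtype range, 0.182 to 38.7 CPM. The knockout maximum was that of liver M, whose index stood with chow. Without the 4 libraries it was 8.48 CPM, against 38.7 CPM in wildtype livers. The difference of Enho was then -1.88 (SE 0.53, unadjusted p = 0.00121, adjusted p = 0.744), and none of the 10 passed, where 0.00647% of all genes did. The 95% intervals were narrow for Igf1 (-0.17 to 0.22) and Lect2 (-0.18 to 0.19) and wide for Fgf21 (-0.27 to 1.71) and Gdf15 (-1.01 to 0.92). On chow none of the 10 passed, where 0.00654% of all genes did (0.00647% without the 4 libraries), and 0 had an unadjusted p under 0.05. DESeq2 called 0 of the 10 and 0.0131% of all genes there, and limma voom 0 and 0%.

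**Figure D2:**
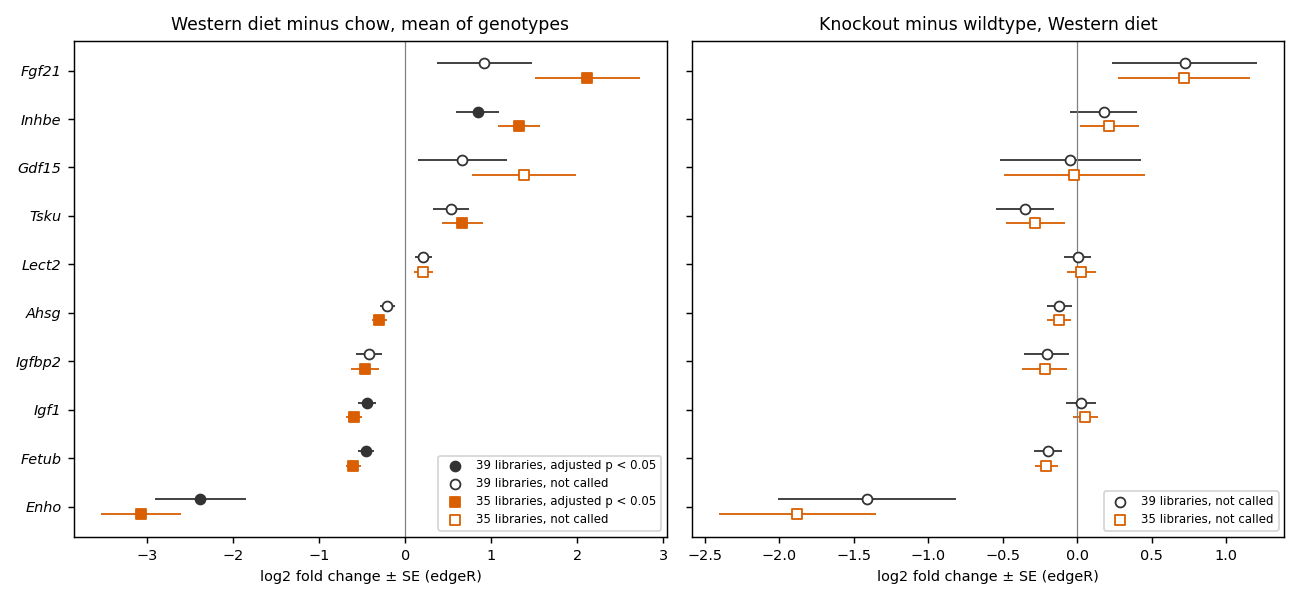
Points are log2 fold changes with their SE for the 10 genes, Western diet minus chow averaged over genotypes on the left and knockout minus wildtype on Western diet on the right, with 39 libraries in black and the other 35 in orange. Filled symbols have an adjusted p under 0.05. On the left Enho lies farthest to the lower side at -2.39, and on the right no symbol is filled.

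The 30 Western diet livers differ widely among themselves, and the 10 genes were set against 3 scores of these livers. Each score is the mean log2 CPM of a list with none of the 10 genes in it: 15 lipid droplet genes such as Plin2, which coats droplets, and Cidec, which enlarges them, 22 acute phase genes and 18 genes of the integrated stress response. Genotype was a term in each fit, and a slope is the log2 change per unit of score. Of the 22 acute phase genes 7 were lower in livers with a higher lipid droplet score, against 4.7% of all genes, so the scores are not independent of each other. Since the scores are themselves measured in these RNA samples, a slope describes transcripts that moved together.

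Of the 10 genes, 5 moved with the lipid droplet score, which ran from 4.11 to 6.31. Fgf21, Gdf15 and Inhbe were higher and Enho and Ahsg lower in livers with a higher score, where 9.9% of all 13790 genes tested passed, 5.2% higher and 4.7% lower. The slope of Enho was -2.34 (SE 0.25, adjusted p = 1.97e-07). The slope of Inhbe was 0.75 (SE 0.12, adjusted p = 5.62e-05), that of Gdf15 1.41 (SE 0.33, adjusted p = 0.00607), that of Fgf21 1.34 (SE 0.36, adjusted p = 0.016), and that of Ahsg -0.20 (SE 0.047, adjusted p = 0.00512). The same 5 genes passed without the 2 Western diet libraries whose index stood with chow, where 12.1% of all genes passed, and with the acute phase score in the same fit, where 7.89% did. Fetub passed as well with limma voom, where 20.7% of all genes passed, and with a score from z values, where 13.4% did. Lect2 passed with limma voom.

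Single livers show the pattern. The lowest lipid droplet score was that of wildtype liver G, at 4.11, where Enho was 38.7 CPM, Fgf21 0.814 CPM and Inhbe 66.9 CPM. Wildtype livers L and M, at scores of 4.19 and 4.27, had 19.4 and 21.6 CPM of Enho, 0.756 and 1.08 CPM of Fgf21 and 65.4 and 65.8 CPM of Inhbe. L and M are also the least different pair of libraries within any group. At the other end knockout liver J, at 6.31, had 0.376 CPM of Enho, 10.99 CPM of Fgf21 and 176 CPM of Inhbe, and knockout liver N, at 6.28, had 1.15 CPM of Enho, 25.6 CPM of Fgf21 and 279 CPM of Inhbe. Wildtype liver G departs from the pattern for Gdf15, which was 38.1 CPM there against 7.86 and 9.34 CPM in wildtype livers L and M. Wildtype livers G, M and L also had the 3 highest acute phase scores, 9.81, 8.98 and 8.95. Other livers depart from the pattern too: Fgf21 was at its highest, 29.2 CPM, in knockout liver O with a lipid droplet score of 5.08, while knockout liver A, at 5.63, had 2.58 CPM of Fgf21 and 17.1 CPM of Gdf15. Of the genes that did not pass, Fetub had a slope of -0.18 (SE 0.061, adjusted p = 0.0557), Lect2 0.15 (adjusted p = 0.149), Igfbp2 -0.20 (adjusted p = 0.244) and Tsku 0.12 (adjusted p = 0.678). Igf1 had a slope of -0.0021 (SE 0.076, 95% interval -0.16 to 0.15), so the growth factor that was lower on Western diet did not pass for this score.

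**Figure D3:**
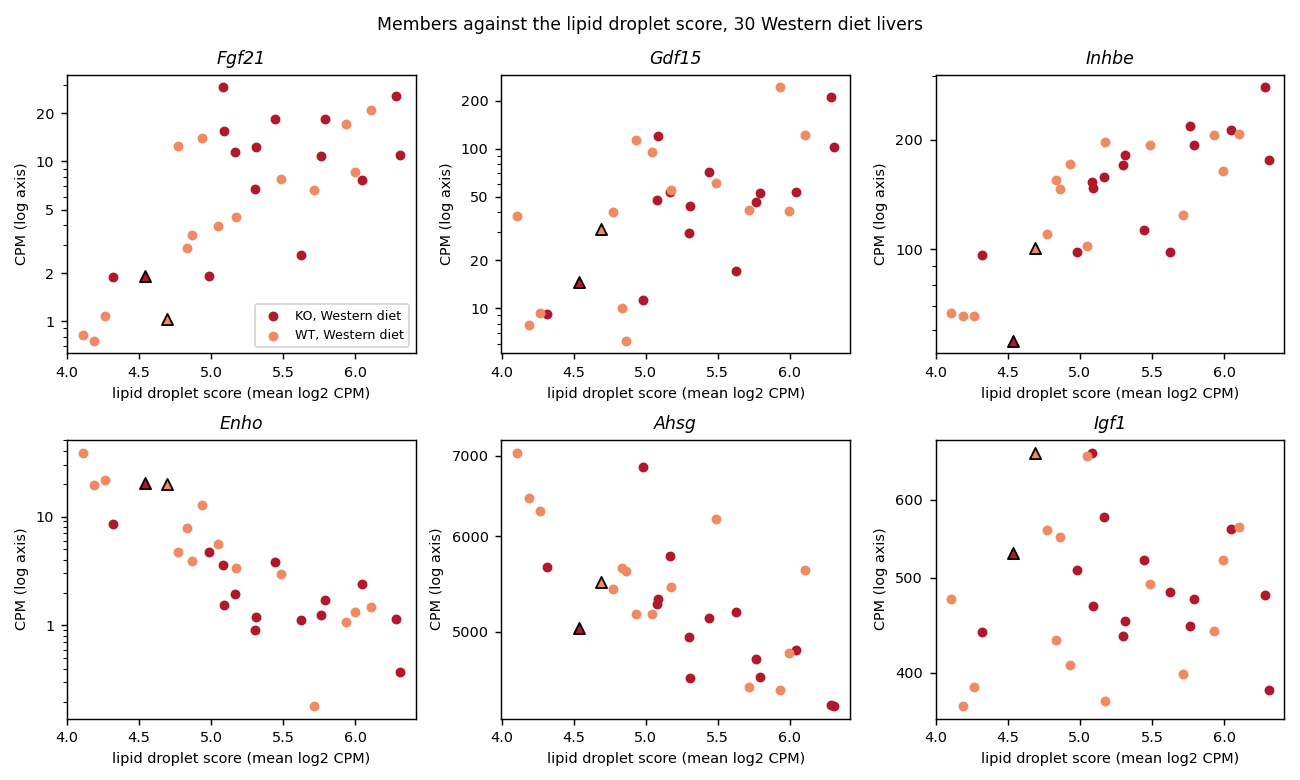
Each panel plots 1 gene in CPM on a log axis against the lipid droplet score (mean log2 CPM of 15 genes) in the 30 Western diet livers, knockout in dark red and wildtype in orange, with triangles for the 2 livers whose diet genes stood with chow. Enho falls from 38.7 CPM at the lowest score to 0.376 CPM at the highest, while Igf1 has no slope that passed the test.

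Cfd, the adipsin gene and a marker of fat cells, rose with the lipid droplet score at a slope of 3.46 (SE 0.27, adjusted p = 5.77e-10) and ran from 0.125 to 160 CPM over the Western diet livers. The other fat cell markers of the list were at or near 0: Adipoq had at most 0.170 CPM and 0 counts in 24 of 30 livers, Lep at most 0.0284 CPM and 0 counts in 29, Plin1 at most 0.397 CPM and 0 counts in 24, and Retn at most 0.452 CPM and 0 counts in 17. The summed level of the 5 markers ran from 0.377 to 160 CPM in knockout and from 0.125 to 154 CPM in wildtype livers on Western diet, and from 0.377 to 31.4 CPM in knockout and from 0.308 to 6.16 CPM in wildtype livers on chow.

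With the acute phase score, which ran from 6.52 to 9.81, only Ahsg passed among the 10 genes, where 15.5% of all genes did, 8.32% higher and 7.21% lower. Ahsg, whose product is known in humans as a protein that falls in the acute phase, had a positive slope of 0.12 (SE 0.034, adjusted p = 0.0117). That call was lost when knockout liver E or wildtype liver G on Western diet was left out. Fgf21 at -0.88 (SE 0.32, adjusted p = 0.0562), Lect2 at -0.12 (SE 0.047, adjusted p = 0.0709) and Inhbe at -0.32 (SE 0.12, adjusted p = 0.0819) lay close to the threshold. Without the 2 libraries Enho at 0.99 (adjusted p = 0.00409) and Ahsg at 0.14 (adjusted p = 0.0104) were higher, and Fgf21 at -1.06 (adjusted p = 0.0109) and Inhbe at -0.40 (adjusted p = 0.0118) were lower, where 13.5% of all genes passed, 7.44% higher and 6.02% lower. Markers of Kupffer cells, the resident macrophages of the liver, moved with the same score: 6 of 7 were higher, Csf1r and Adgre1 among them at slopes of 0.41 and 0.52. The marker sum ran from 123 to 442 CPM in knockout and from 79.5 to 455 CPM in wildtype livers on Western diet. None of the 7 was at 0 in all livers of a group. Of the neutrophil list only S100a9 passed the filter, with a slope of 1.62 (SE 0.18), and the sum of its 9 markers ran from 0.865 to 8.26 CPM in knockout and from 0.728 to 21.4 CPM in wildtype livers on Western diet. The part of these cells in the slopes of the 10 genes was not tested.

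With the integrated stress response score none of the 10 genes passed, where 0.667% of all genes did. An unadjusted p under 0.05 was reached by 2 of the 10 and by 11.4% of all genes. Limma voom also called 0, with 0.479% of all genes. The slope was 3.01 (SE 1.16, adjusted p = 0.281) for Fgf21, 2.09 (SE 1.38, adjusted p = 0.622) for Gdf15 and -0.033 (SE 0.55, adjusted p = 0.992) for Inhbe. This score spanned only 0.919 log2 units over the 30 livers, against 2.20 for the lipid droplet score. Igfbp2 had a slope of -0.70 (SE 0.31, adjusted p = 0.364).

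**Figure D4:**
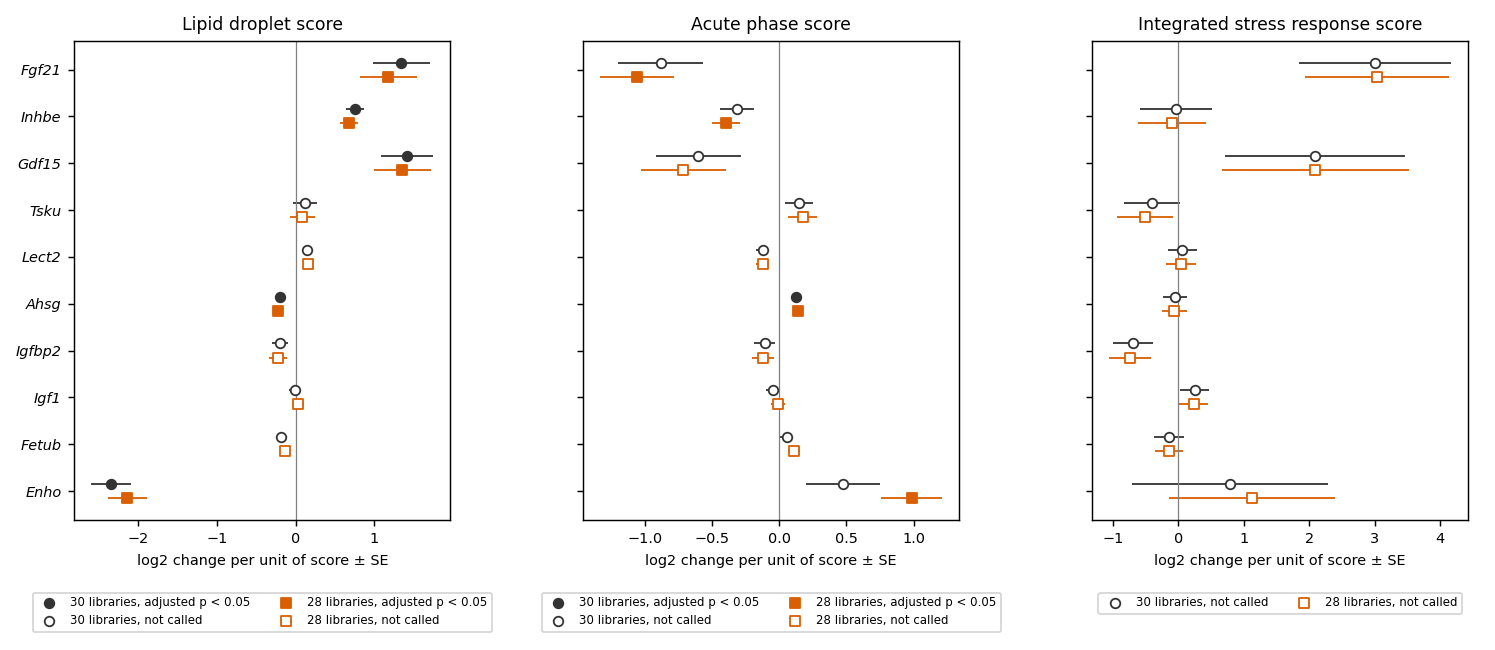
Points are slopes (log2 change per unit of score) with their SE for the 10 genes against the lipid droplet, acute phase and integrated stress response scores in Western diet livers, with 30 libraries in black and 28 in orange. Filled symbols have an adjusted p under 0.05. On the left 5 genes are filled on both sets, with Enho at -2.34 and Gdf15 at 1.41, and on the right no symbol is filled.

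Other genes of the same pathways were counted in the diet comparison with all 39 libraries, read against 14.6% of all genes. Of 14 receptors of these hormones that were tested, Igf2r was higher (0.35) and Acvr2b, a receptor for activins, lower (-0.63) on Western diet, and 12 did not pass. Of 8 regulators of Fgf21, Srebf1, which drives fatty acid synthesis genes, was higher (1.19), as was Creb3l3 (0.24), a liver factor that acts on Fgf21 in fasting, and 6 did not pass. Of 18 genes of the growth hormone and IGF axis only Igf2bp2 passed (1.07). Of 11 activin and inhibin genes only Inhbc passed (0.35), which encodes the beta subunit of activin C. None of 5 cystatin relatives of the fetuins passed, Kng1 having the smallest p (log2 change -0.17, adjusted p = 0.0734). Of 17 other liver hormones Selenop was higher (0.41), Hamp, the iron hormone hepcidin, lower (-1.66) and Thpo, thrombopoietin, lower (-0.35). Of 18 genes of the integrated stress response 3 were higher, Atf5 (0.33) and Chac1 (1.06) among them, and 2 lower, Cth (-0.77) and Atf4 (-0.37). Without the 4 libraries, read against 29.9%, the counts were 2 higher and 3 lower of 14 receptors, 4 higher of 8 regulators of Fgf21, 3 higher and 1 lower of 18 genes of the growth hormone and IGF axis, 2 higher of 11 activin genes, 1 lower of 5 cystatin relatives, 2 higher and 3 lower of 17 other liver hormones, and 5 higher and 4 lower of 18 genes of the integrated stress response.

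The same lists were counted for the lipid droplet score, read against 9.9% of all genes. None of the 14 receptors and none of the 8 regulators of Fgf21 passed, Acvr2b (-0.30, adjusted p = 0.0726) and Nr1h3 (-0.097, adjusted p = 0.0729) having the smallest p. Of 17 genes of the growth hormone axis 3 passed: Irs2, an adaptor of the insulin receptor, fell with the score (-0.82), as did Stat5b (-0.17), and Igfbp3 rose (0.35). Of 10 activin and inhibin genes Inhbb rose (0.56) and Smad3 fell (-0.25), and of 5 cystatin relatives Cst3 (0.21) and Cstb (0.22) rose. Of 17 other liver hormones 2 fell, Thpo (-0.22) and Hamp (-0.85), and 1 rose. Of 18 genes of the integrated stress response Vldlr rose (1.47) while Asns, asparagine synthetase, fell (-1.85), and 16 genes did not pass. For the acute phase score, read against 15.5%, 4 of 17 genes of the growth hormone axis were higher, Igfbp4 (0.14) and Irs2 (0.47) among them, 2 of 5 cystatin relatives, Hrg (0.15) and Kng1 (0.099), and 2 of 8 regulators of Fgf21, Nr1h3 (0.074) and Rxra (0.17). Of the other liver hormones Fgl1 (1.14), Manf (0.35) and Gpld1 (0.23) were higher and 2 lower, Leap2 (-0.19) among them. Of the activin genes Inhbc was higher (0.13), and of the integrated stress response Chac1 was higher (0.54) and Trib3 (-0.45) and Vldlr (-0.99) lower.

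For each of the 10 genes the 3 transcripts with the most similar pattern over the 30 Western diet livers were looked up among 11836 candidates, by Spearman's rho after subtraction of the genotype means. These values describe livers that share sequencing and scaling, and carry no test. For Gdf15 they were Depp1 (0.85), Slc25a47 (0.79) and Fgf21 (0.78), which puts a second member of the set among its closest. For Fgf21 they were Hsbp1 (0.85), Cda (0.79) and Nudt9 (0.78), for Inhbe Paqr7 (0.88), Mpdu1 (0.84) and Pnldc1 (0.83), and for Enho Plxnb1 (0.84), Serpina1e (0.83) and Smim22 (0.81). Serpina1e has near-identical copies, so its counts are uncertain. The fetuins had Nrbp2 (0.83), Jchain (0.76) and Hip1r (0.76) closest to Fetub and Pla1a (0.76), Nostrin (0.74) and Slco2a1 (0.71) closest to Ahsg. Lect2 was closest to Ccdc107 (0.82), Tbca (0.74) and Apoe (0.74), and Tsku to Ftsj3 (0.74), Tfdp1 (0.71) and Rrp12 (0.69). The lowest values were those of the growth hormone axis, with Selenow (0.69), Bptf (0.68) and Rbm25 (0.67) closest to Igf1 and Nsmce4a (0.71), Cited2 (0.70) and Ppargc1b (0.67) closest to Igfbp2. Among the 10 genes themselves rho was highest for Fgf21 with Gdf15 (0.78), Fgf21 with Inhbe (0.69), Gdf15 with Inhbe (0.66) and Enho with Ahsg (0.61).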

How the data were processed

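Whole-liver total RNA was made into NEBNext Ultra libraries and sequenced paired-end (NovaSeq), per the labels. The authors aligned reads to GRCm39 with STAR 2.7.8a and deposited raw counts per gene from featureCounts 2.0, per the submitters' processing notes. Neither the gene models nor the strand option of the counting is given in the sources used here, so reads of overlapping opposite-strand genes cannot be told apart.

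The counts of 39 libraries (8578865 to 30438808 per library) were used as deposited. The matching of 52083 of 55416 identifiers to symbols, the exon lengths and the overlaps came from a GRCm38 annotation (GENCODE). Genes were filtered by group with filterByExpr of edgeR 4.0.16 (minimum count 10, minimum total 15), scaled by TMM and fitted with the robust quasi-likelihood model, all groups in 1 fit (R 4.3.3), or with genotype and a score over the 30 Western diet libraries. The SE is implied by the F statistic, and 95% intervals use it with the t quantile of the fit. P-values were adjusted after Benjamini and Hochberg across every gene tested, with 0.05 as the threshold. Log2 CPM uses a prior count of 2. The fits were tested on simulated data. DESeq2 1.42.0 and limma 3.58.1 gave alternatives, as did other size factors, no filter, a replicate block, a library number term, fits to just the groups compared, scores from z values and leaving out each library. The fits without the 4 libraries, without the 2 and with both scores together were chosen after seeing the data.

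The 10 genes and all lists were chosen with earlier results of these data known. Named genes are the 10, Cd163, of each other list up to 4 called genes with the smallest p (where none passed, the smallest p; the cholesterol list and, beyond diet, some cell type lists are not named in the text, and 1 gene is not reported here), and the 3 most similar transcripts. The labels do not state that the replicate letters pair mice, and the main fits do not pair them. The least different libraries of a group, wildtype livers L and M on Western diet, differed by a chi-square of 3.98 per gene, above sampling noise. The next closest pair differed by 10.4, and the median over pairs was 54.3. L and M were kept as separate mice, and whether they come from 1 mouse was not tested.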

Additional observations from a re-analysis of the deposited data

Results flagged for a closer look

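Each gene was looked at in the chow groups of 4 and 5 livers, 20 groups of values in all, for a library far from the others of its group, and 3 stood out. Chance alone puts about 1 in 20 groups past this limit. Enho was 1.52 CPM in wildtype chow liver A against 29.1 to 79.2 CPM in the other 4, and this is a liver whose diet genes stood with Western diet. Gdf15 was 7.10 CPM in wildtype chow liver C against 32.0 to 35.7 CPM in the other 4. Igfbp2 was 254 CPM in knockout chow liver B against 531 to 615 CPM in the other 3.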

How the results depend on the processing

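The number of the 10 genes called for diet moved most. In wildtype mice it was 0, against 2 with DESeq2, 4 with limma voom and 4 without the 4 libraries; in knockout mice it was 0, against 4 with limma voom and 4 without the 4 libraries; averaged over genotypes it was 4, against 6 with DESeq2, 8 with limma voom and 8 without the 4 libraries. The genes called of all tested moved too: 1 in knockout mice, against 227 with DESeq2, 820 with limma voom and 2657 without the 4 libraries; 212 in wildtype mice, against 504, 1045 and 1339; and 2234 averaged, against 2588, 3653 and 4622. In wildtype mice they were 0 with library number as covariate, 44 with no filter and 50 with the replicate block, and averaged 1262 with no filter. For the acute phase score the number of the 10 called was 1, where 15.5% of all genes passed. It was 4 without 2 libraries (13.5% of all genes), 4 with limma voom (22.2%) and 2 with a score from z values (17.2%). With 1 library left out at a time the counts of the 10 ran from 0 to 4 in knockout mice (4 without chow liver D) and from 0 to 2 in wildtype mice (2 without chow liver A). Averaged they ran from 3 to 7 (7 without wildtype chow liver A, where 2801 of all genes passed). For the acute phase score they ran from 0 to 4, where 1515 to 2353 of all genes passed. Genes called of all tested then ran in knockout mice from 0 to 1408 (without chow liver D; 203 higher and 223 lower without Western diet liver M, 13 without wildtype Western diet liver A and at most 1 in the other 36 fits), in wildtype mice from 0 (without chow liver B; 6, 11 and 26 without chow livers D, C and E) to 556 (without chow liver A), and averaged from 829 without knockout chow liver B (941 and 1375 without knockout chow liver C and wildtype chow liver D) to 3505 without knockout chow liver D. The genotype comparisons called 0 of the 10 throughout. The lipid droplet score called 5 of the 10 and 1365 of all genes. With 1 library left out it called 5 to 6, and 1018 to 1475 of all genes. It called 6 with a score from z values, where 1844 of all genes passed, and 7 with limma voom, where 2861 did.

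The replicate letters are not stated to pair mice. Same-letter livers on Western diet had a mean correlation of -0.010 between genotypes, from -0.32 to 0.38 over 15 pairs. With the letter as a replicate block 4 genes were called for diet averaged over genotypes, as without it. Inhbe lost its diet call with no filter (adjusted p = 0.0582) and with library number as covariate (adjusted p = 0.0605), which called Igfbp2 (-0.55, adjusted p = 0.0357).

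Directions turned only for values that pass no test. For knockout against wildtype on Western diet these were Gdf15 (0.090 with the block, 0.25 with library number, 0.42 with limma voom; -0.34 to 0.30 with 1 library left out), Lect2 (-0.0033 with no filter; -0.026 to 0.042), Igfbp2 (0.019 with library number) and Igf1 (-0.012 to 0.064). On chow they were Fgf21 (-0.24 with the block; -0.70 to 1.52), Gdf15 (-0.0085 with the block, -0.29 without the 4 libraries; -0.38 to 1.14), Igf1 (0.021 with library number, 0.044 without the 4 libraries; -0.14 to 0.15) and Inhbe (-0.22 to 0.64). Gdf15 turned for diet in knockout mice (-0.083 to 1.43) and for the interaction (0.098 with the block, 0.13 with limma voom, 0.27 without the 4 libraries; -1.19 to 0.33). For the lipid droplet score Igf1 turned (0.033 without 2 libraries, 0.0020 with other size factors, 0.0069 with no filter, 0.041 with limma voom; -0.031 to 0.031), and for the integrated stress response score Inhbe (0.019 with limma voom, 0.10 with z values; -0.21 to 0.26). The cause of these shifts was not tested. Of 551 values of a single gene under alternatives other than leaving out 1 library, 491 kept direction and call. Depth limits Enho and Fgf21, with as few as 3 and 6 counts in a library.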
